A study of Mus musculus with 12 samples.

Results

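Splicing factors were followed at the level of single transcripts in mouse spermatids at the round (RS) and the elongated (ES) stage. The members were all contigs whose deposited gene symbol began with Srsf, Hnrnp, Sf3a, Sf3b, Snrp, Snrn, Prpf, U2af, Lsm and a digit, or Rbm and a digit. Contigs are single reference transcripts, and 1 gene can therefore have more than 1 of them. The rule found 159 contigs of 92 genes, out of 12114 contigs and 7010 gene symbols in all. Of these genes, 40 had more than 1 contig, and the largest number for 1 gene was 7. Nanopore direct RNA sequencing read native poly(A) RNA from spermatids sorted from adult testes by DNA content, red fluorescence and light scatter. The 4 groups were RS wt/wt, RS dcat/dcat, ES wt/wt and ES dcat/dcat, named by the Tent5c genotype, and each had 3 libraries. Males of the dcat/dcat groups carry a catalytically inactive TENT5C, a poly(A) polymerase, in all of their cells, and wt/wt males carry the normal enzyme. Each library was a pool of RNA from 3 mice, so the spread between libraries is a spread between pools. The study's methods have RS and ES sorted from the same mice, but do not say that a replicate number marks the same mice in both.

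Introns are removed by the spliceosome, which is built anew on every intron from small nuclear ribonucleoproteins (snRNPs). The U1 snRNP binds the donor site at the start of an intron, U2AF and the U2 snRNP recognise its acceptor end and branch point, and the U4/U6.U5 tri-snRNP then joins for catalysis. SR proteins mostly promote, and hnRNP proteins often repress, the use of nearby sites. Many genes of these families also make unproductive transcripts, which carry an early stop codon and are open to nonsense-mediated decay (NMD). The testis is known for its large number of alternative transcripts, and transcription is shut down as spermatids elongate.

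The largest rises in the group came from Rbm4b and Rbm28, RNA-binding motif genes whose contigs differ in splicing and in their annotated ends. Splice sites that differ between those contigs are shown first. All are on GRCm38.p6 and were read from its RefSeq sequence with exon edges from GENCODE vM21. Rbm4b lies on the plus strand of chromosome 19, and 2 of its 3 NMD contigs include an alternative exon that the protein-coding contig ENSMUST00000036744 skips. They enter that exon at acceptors 4 bases apart, so their exons are 270 and 266 bases long. The first 2 lines show the acceptors with the exon in capitals, and the second of them ends at the stop codon reached in the frame of that contig, 17 bases into the exon. The third line shows in capitals the stop codon reached from the first acceptor, 53 bases into the exon. The fourth line shows the acceptor of a different exon, 222 bases long, which the third NMD contig carries downstream of the normal stop codon.
ENSMUST00000236797, chr19:4759993-4760022: aagatgtctcctctccacagGCAGCAGTGA
ENSMUST00000236160, chr19:4760004-4760033: tctccacaggcagCAGTGAATGCAGTTTGA
ENSMUST00000236797, chr19:4760046-4760065: aagaagctgttcccaagTAA
ENSMUST00000235278, chr19:4764330-4764359: taaagaaacttaccttccagGTGTGAACCT

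Each of the 3 acceptors follows an ag, the usual end of an intron. The normal stop codon lies 9 spliced bases before the last exon junction in ENSMUST00000036744 and 231 before it in ENSMUST00000235278. The early stop codons lie 888 bases before it in ENSMUST00000236797 and 920 in ENSMUST00000236160. Rbm28 lies on the minus strand of chromosome 6. Its contig ENSMUST00000169214 is annotated as a retained intron because its first exon reads through an intron of 133 bases that the 19-exon coding contig ENSMUST00000007993 removes. The edges of that intron are shown 5′ to 3′ on the minus strand with intron bases in capitals, and they are the gt and ag of an ordinary intron.
Rbm28 donor, chr6:29155007-29155036: tgcacaagagGTATGTGCACATTCTGAGAA
Rbm28 acceptor, chr6:29154884-29154913: TCCGAACTGTGCTGTTGCAGagcagtcaag

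Total counts ran from 337287 in ES wt/wt replicate 3 to 1359427 in RS wt/wt replicate 3. Levels are given as CPM, the share of a library's counts after TMM scaling, a correction for a few transcripts that take up many reads. On that scale 3 counts in 1 library correspond to 1.77 to 10.6 CPM. The median member contig had 165 counts over all 12 libraries, against 216 for all contigs. Of the 159 members, 150 were tested, with a minimum of 10 reads in 2 or more libraries of a group, and 9 were not. Of the 150, 59 passed in both stages, 89 in RS alone and 2 in ES alone, so most members entered the test through the stage in which they had more reads. The targeted gene, Tent5c, stood at 239 to 404 CPM in RS and 809 to 1114 CPM in ES, and its allele alters the protein, so its level does not check the genotype labels. Among 14 contigs of round spermatid markers, 3 were higher and 5 lower in ES in wt/wt. Their summed levels were 1190 to 1339 CPM in RS wt/wt and 1176 to 1350 CPM in ES wt/wt. Meiotic markers had 4 higher and 5 lower of 20 tested contigs, with sums of 1153 to 1275 CPM and 980 to 1124 CPM. Of 18 contigs of elongated spermatid markers, 17 were higher in ES in wt/wt, with summed levels of 20265 to 43299 CPM in RS and 217652 to 287737 CPM in ES.

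Markers of somatic cells moved in the same direction as those of elongated spermatids. All 10 tested Sertoli contigs and 6 of 7 Leydig contigs were higher in ES in wt/wt. Summed Sertoli markers ran from 31.6 to 39.6 CPM in RS wt/wt and from 275 to 510 CPM in ES wt/wt. In dcat/dcat they ran from 12.8 to 53.8 CPM in RS and from 376 to 589 CPM in ES. Summed Leydig markers ran from 67.3 to 128 CPM in RS wt/wt and from 452 to 812 CPM in ES wt/wt. In dcat/dcat they ran from 72.1 to 101 CPM in RS and from 276 to 914 CPM in ES. The defining genes Sox9, Amh, Wt1, Star, Hsd3b1 and Lhcgr had no contig among those counted here. The part of somatic RNA in the rises described below was not tested. In bulk RNA, a change in the number of cells of a type cannot be told apart from a change in the RNA of each cell.

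The first comparison asked which splicing factor transcripts gained or lost share of the poly(A) RNA pool as wt/wt spermatids elongated. Of 150 members tested, 11 were higher and 23 lower in ES (edgeR quasi-likelihood test, adjusted p, here q, at or under 0.05). In all, 6 genes had a contig called higher and 22 had a contig called lower. Such a gene need not have changed as a whole. With counts summed by gene, Srsf2 (0.27, q 0.338) and Rbm42 (-0.30, q 0.480) were uncalled, for example. Among all 11831 contigs tested, 23.8% were called higher and 16.5% lower, and 40.3% were called in all. The members' shares were 7.33% higher, 15.3% lower and 22.7% in all. The share of members called lower was thus near that of all contigs and the share called higher was below it. Of the 59 members that passed the filter in both stages, 9 were higher and 13 lower, where 32.3% and 20.2% of all such contigs were called.
The median log2 change of the members was -0.40 against -0.24 for all contigs tested. A negative change was found in 113 of 150 members. All 11 rises and 19 of 23 falls were at least 2-fold, and no gene had contigs called in opposite directions (0 genes). ES and RS libraries did not overlap for 14 members that were higher and 44 that were lower, where 25.9% and 27.3% of all contigs were so separated. Of the 89 members that passed the filter in RS alone, 0 were higher and 10 lower, where 0.452% and 14.4% of such contigs were called. Both members that passed in ES alone were higher, as were 88.7% of such contigs.

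The number of members called lower rested on single libraries more than the number called higher did. It was 15 without RS wt/wt replicate 2, and 13, 10 and 14 without ES wt/wt replicates 1, 2 and 3, while 9 to 12 members were called higher without any 1 library. With the replicate number as a block it was 40. With libraries scaled by total counts alone, 8 members were higher and 82 lower, so that 8.89% of the calls were rises, against 32.4% with TMM. That scaling moved the median of all contigs tested from -0.24 to -0.96, and the median of the members moved with it to -1.12.

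**Figure D1:**
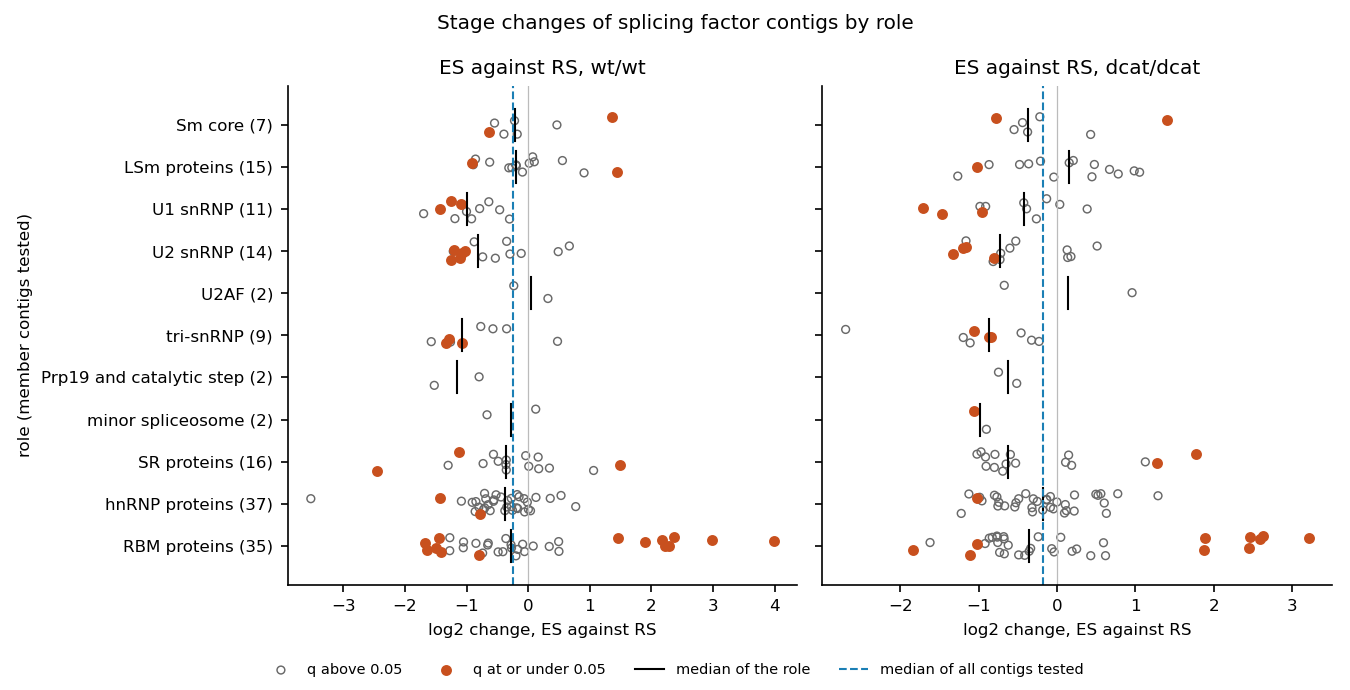
Log2 change from RS to ES of each tested member contig, by role, in wt/wt (left) and dcat/dcat (right). Filled points have q at or under 0.05, black bars are medians of a role, and the dashed line is the median of all 11831 contigs tested (-0.24 and -0.18). Rises were found among Sm core, SR and RBM proteins in both genotypes and among LSm proteins in wt/wt alone. Contigs of the U1, U2, tri-snRNP and hnRNP groups were called in the lower direction alone. So was the 1 minor spliceosome contig called, in dcat/dcat.

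As a share of all reads, the 159 member contigs became a smaller part of the RNA pool. They held 0.727%, 0.708% and 0.643% of counts in RS wt/wt and 0.434%, 0.422% and 0.452% in ES wt/wt. In dcat/dcat the shares were 0.718%, 0.691% and 0.618% in RS and 0.418%, 0.435% and 0.440% in ES. Every ES library lay below every RS library. By role, the U1 share fell from 0.0679% ± 0.00978 to 0.0188% ± 0.00263 and the U2 share from 0.0826% ± 0.0123 to 0.0282% ± 0.00338 in wt/wt (mean ± SD, n = 3). RBM proteins were the role whose share was higher in ES, at 0.110% ± 0.00201 in RS and 0.137% ± 0.00538 in ES in wt/wt. Within it, Rbm4b went from 0.0218% to 0.0632% and Rbm28 from 0.00713% to 0.0377%. The share of the remaining RBM contigs was therefore lower in ES. The Sm core changed least relative to its own share, at 0.113% ± 0.00947 and 0.105% ± 0.00538. Within it, Snrpd2 went from 0.0475% to 0.0749%, so the share of the remaining Sm contigs was lower in ES. These shares are of unscaled counts, and in ES a larger part of each library was taken by elongated spermatid transcripts.

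**Figure D2:**
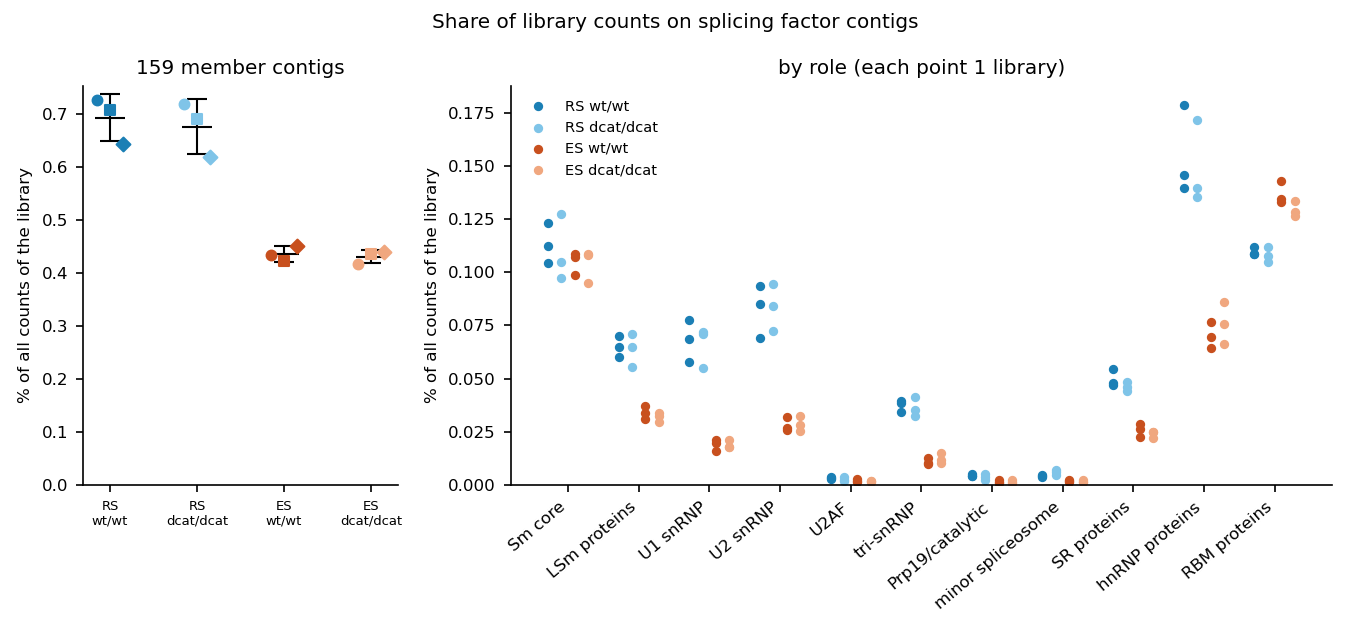
Share of all counts of a library on the 159 member contigs (left, bars are mean ± SD of 3 libraries) and on each role (right, each point 1 library). Every ES library lies below every RS library on the left. On the right, RBM proteins are the role with more of the counts in ES than in RS, in both genotypes. Without Rbm4b and Rbm28, the share of that role was lower in ES.

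The Sm core is the ring of proteins that encloses the RNA of most spliceosomal snRNPs. Of its 7 contigs, 1 rose and 1 fell in wt/wt, where 23.8% and 16.5% of all contigs did. Snrpd2, which encodes the ring subunit SmD2, had 5036 counts in all, the most of any member contig. Its contig ENSMUST00000049294 (chromosome 7, 19149722 to 19153542, plus strand, 3 exons) stood at 296, 412 and 415 CPM in RS wt/wt and at 980, 1033 and 883 CPM in ES wt/wt. The dcat/dcat libraries had 276, 424 and 380 CPM in RS and 1046, 984 and 824 CPM in ES. No ES library overlapped an RS library, and the log2 change was 1.37 in wt/wt (SE 0.190, q 5.9e-05) and 1.40 in dcat/dcat (SE 0.190, q 5.1e-05).
The 6 other subunits of the ring were not called higher, with log2 changes from -0.63 for Snrpg to 0.47 for Snrpb (q 0.403). Snrpg, which encodes SmG, fell from 174 ± 4.33 to 112 ± 2.33 CPM (SD, n = 3), or by 0.63 on the log2 scale (q 0.0267), but the call was lost without RS wt/wt replicate 2 (-0.62, q 0.0633) and without ES wt/wt replicates 1, 2 and 3 (-0.55 to -0.59). Snrpf, which encodes SmF, had a log2 change of -0.55 with q 0.0568, and was called without RS wt/wt replicate 3 (-0.67, q 0.0397).

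LSm proteins form related rings, one on U6 RNA in the nucleus and one that promotes mRNA decay in the cytoplasm. Of 15 tested contigs, 1 rose and 1 fell in wt/wt, where 23.8% and 16.5% of all contigs did. Lsm2, a subunit of both rings (ENSMUST00000007266, chromosome 17), stood at 256, 264 and 248 CPM in RS wt/wt and at 133, 135 and 141 CPM in ES wt/wt. The stages did not overlap, and the log2 change was -0.91 (SE 0.188, q 0.00143). Lsm12, an LSm-domain protein outside these rings (ENSMUST00000021297, chromosome 11), moved the other way, from 36.6, 33.4 and 34.3 CPM in RS wt/wt to 99.3, 93.2 and 91.8 CPM in ES wt/wt. The log2 change was 1.44 (SE 0.245, q 3.1e-04). Lsm4, another subunit of both rings, was at 34.3 ± 5.14 CPM in RS and 36.9 ± 13.1 CPM in ES (SD, n = 3), a log2 change of 0.10 with SE 0.336, and its sign turned with total-count scaling (-0.62).

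**Figure D3:**
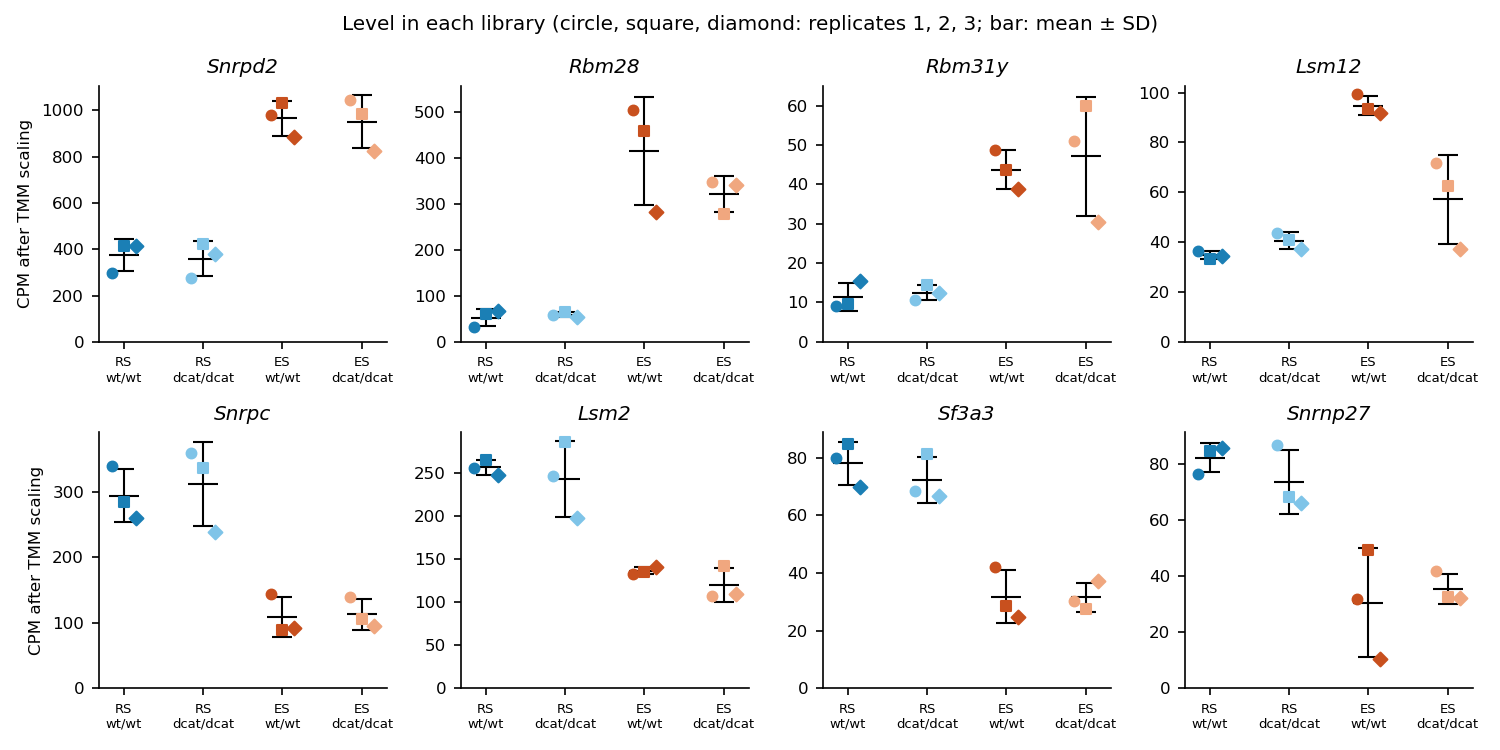
CPM after TMM scaling of 8 member contigs in each of the 12 libraries, by group. Circles, squares and diamonds are replicates 1, 2 and 3, and bars are the mean ± SD of 3 libraries. The upper row shows contigs that rose from RS to ES in wt/wt and the lower row contigs that fell. Lsm12 was called in wt/wt, and its RS and ES libraries overlapped in dcat/dcat.

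All 11 contigs of the U1 snRNP and its partner proteins had a negative change in wt/wt, with a median of -1.001, and 3 were called lower, where 16.5% of all contigs were and the median of all was -0.24. In dcat/dcat 3 were called lower too, but 2 of 11 had a positive change and the median was -0.42. Snrpc encodes U1-C, which steadies the pairing of U1 RNA with the donor site. Its main contig ENSMUST00000232873 (chromosome 17) stood at 339, 284 and 259 CPM in RS wt/wt and at 144, 89.4 and 91.8 CPM in ES wt/wt. The highest ES library lay below the lowest RS library, and the log2 change was -1.43 (SE 0.241, q 3.0e-04). A second Snrpc contig, ENSMUST00000071006, moved alike, with a log2 change of -1.26 (q 0.0271). The main contig of Snrpa, whose product U1-A binds a stem loop of U1 RNA, passed in RS alone too. It fell from 27.4 ± 9.76 to 12.8 ± 2.88 CPM (SD, n = 3), with a log2 change of -1.10 (q 0.0447). That call did not hold without RS wt/wt replicate 1 or ES wt/wt replicate 2 (-0.82 in both). It was lost without each other library but RS wt/wt replicate 3 and RS dcat/dcat replicates 1 and 3 (q 0.0520 to 0.104), and also with RLE scaling (q 0.0554) and DESeq2 (q 0.107).

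Of 14 U2 snRNP contigs, 5 of 5 different genes were called lower in wt/wt and 0 higher, where 16.5% and 23.8% of all contigs were. Their median log2 change was -0.81, against -0.24 for all contigs. Sf3a3, a subunit of the SF3a complex that joins U2 to the branch point region, stood at 79.8, 84.6 and 69.8 CPM in RS wt/wt and at 42.3, 28.5 and 24.7 CPM in ES wt/wt. The stages did not overlap (log2 change -1.26, SE 0.252, q 0.00114). Sf3b2, of the neighbouring SF3b complex, stood at 93.0, 57.2 and 75.7 CPM in RS wt/wt and at 23.2, 39.95 and 35.3 CPM in ES wt/wt (log2 change -1.21, SE 0.282, q 0.00344). A small SF3b subunit, Sf3b5, had a log2 change of -1.07 (q 0.0101), and the call was lost without ES wt/wt replicate 1 (-0.74, q 0.0918) or 2 (-0.98, q 0.0561). Snrpb2, which encodes the U2 RNA-binding protein U2B″, had a log2 change of -1.03 (q 0.0229) that ranged from -0.93 to -1.0 without each ES wt/wt library, with q from 0.0779 to 0.0857. The fifth, Sf3b4, overlapped between stages at 161, 125 and 76.3 CPM in RS and 82.4, 24.7 and 63.6 CPM in ES, and its q of 0.0497 was at the threshold. The call was lost in 11 alternatives, among them RLE scaling (q 0.0593), DESeq2 (q 0.0615), no filter (q 0.0516) and the removal of 8 of the 12 libraries in turn. Without ES wt/wt replicate 2 its log2 change went from -1.10 to -0.63 (q 0.292), and without RS wt/wt replicate 1 to -0.84 (q 0.149).
Both U2AF contigs were uncalled. U2af1, which reads the ag at the acceptor, had a log2 change of 0.32 (SE 0.562), and its paralogue U2af1l4 had -0.23 (SE 0.424).

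Of 9 tri-snRNP contigs, 3 were lower and 0 higher in wt/wt, where 16.5% and 23.8% of all contigs were, and their median was -1.07. Snrnp27, an RS-rich protein of the particle, stood at 76.4, 84.6 and 85.8 CPM in RS wt/wt and at 31.7, 49.5 and 10.6 CPM in ES wt/wt (log2 change -1.33, SE 0.329, q 0.00503). Prpf38a, which joins as the spliceosome is activated, stood at 72.3, 53.6 and 53.8 CPM in RS wt/wt and at 33.8, 22.8 and 14.1 CPM in ES wt/wt (log2 change -1.29, SE 0.298, q 0.00324). Snrnp200, the helicase that unwinds U4 from U6, had a log2 change of -1.07 (q 0.0116), which was -0.82 (q 0.105) without ES wt/wt replicate 2. Stages did not overlap for any of these contigs. Prpf18, a factor of the second catalytic step, was at 20.2 ± 4.72 CPM in RS and 6.67 ± 5.20 CPM in ES (SD, n = 3), and its log2 change of -1.52 missed the threshold (q 0.0559). It was called without ES wt/wt replicate 1 (-2.32, q 0.0394) and without RS dcat/dcat replicates 1 and 3 or ES dcat/dcat replicate 1 (q 0.0373 to 0.0457). The minor spliceosome was represented by 2 contigs, Snrnp25 (-0.67, q 0.125) and Snrnp35 (0.12, q 0.881), neither called.

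SR proteins carry serine and arginine repeats and bind exonic enhancers. Of 16 tested contigs, 1 rose and 2 fell in wt/wt, where 23.8% and 16.5% of all contigs did, and 13 were uncalled. The contigs with the most reads were Srsf3 (-0.56, q 0.0712, called without ES wt/wt replicate 3 at -0.70), Srsf2 (0.34, q 0.273) and Srsf7 (-0.73, q 0.159). The called contigs lie outside the rule for named genes and were singled out after their values were seen. The riser was Srsf1, at 6.65, 7.15 and 6.50 CPM in RS wt/wt and 21.1, 20.9 and 14.1 CPM in ES wt/wt (log2 change 1.50, q 0.00981). It passed the filter in ES alone, where 88.7% of all contigs were called higher, so little can be read from its call. The fallers were a less abundant contig of Srsf7, ENSMUST00000063417 (-1.12, q 0.0418), and an NMD contig of Srsf2, ENSMUST00000176834. The latter had 13, 10 and 10 counts in RS wt/wt and 2, 0 and 0 in ES wt/wt. Its ES counts were at or under 3 in every library, and q was 0.0439. Both fallers passed the filter in RS alone, the stage in which they were higher.

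The hnRNP proteins coat nascent RNA and were the largest role, with 37 tested contigs of 16 genes. None rose in wt/wt and 2 fell, where 23.8% and 16.5% of all contigs did. The median log2 change was -0.38, against -0.24 for all contigs. The contigs with the most reads were uncalled. Hnrnpab was at 109 ± 23.4 CPM in RS and 95.3 ± 13.3 CPM in ES (SD, n = 3), a log2 change of -0.18 with SE 0.222. Hnrnpu, which encodes a large nuclear scaffold protein, had -0.52 (q 0.0802), and Hnrnpf, a binder of G runs, had -0.44 (q 0.465). The 2 that fell were Hnrnpll, a regulator of Ptprc splicing in lymphocytes (46.2 ± 6.80 to 27.5 ± 7.34 CPM, log2 change -0.78, q 0.0374), and Hnrnpa3 (42.2 ± 19.9 to 14.9 ± 4.22 CPM, log2 change -1.44, q 0.0259), the latter named after its values were seen.

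RBM proteins are RNA-binding motif proteins with diverse roles, and they held 8 of the 11 rises in wt/wt. Of their 35 tested contigs, 8 rose and 6 fell, where 23.8% and 16.5% of all contigs did. The rises were both contigs of Rbm28, all 5 contigs of Rbm4b and the Y-linked Rbm31y. RBM28 is a nucleolar protein known from spliceosomal snRNPs and ribosome assembly. Its coding contig stood at 31.6, 59.6 and 66.2 CPM in RS wt/wt and at 503, 458 and 282 CPM in ES wt/wt. In dcat/dcat it stood at 58.8, 64.2 and 53.6 CPM in RS and at 348, 277 and 341 CPM in ES. The lowest ES library was over 4 times the highest RS library, and the log2 change was 2.98 in wt/wt (SE 0.278, q 2.4e-06) and 2.46 in dcat/dcat (SE 0.276, q 1.1e-05). The retained-intron contig, whose intron edges are printed above, passed the filter in ES alone. There 88.7% of all contigs were called higher, so little can be read from the call of this contig. It had 4, 1 and 12 counts in RS wt/wt and 21, 34 and 32 in ES wt/wt, with a log2 change of 3.99 (SE 0.501, q 2.4e-05). Its intron lies 1725 spliced bases from the 3′ end, where direct RNA reads begin. That end is annotated at base 29125142, and the end of the coding contig at 29123576. Whether reads were assigned to the retained-intron contig by its intron or by its end was not tested.
Rbm31y stood at 9.14, 9.53 and 15.4 CPM in RS wt/wt and at 48.6, 43.8 and 38.8 CPM in ES wt/wt (log2 change 1.90, SE 0.332, q 4.0e-04).
The 6 RBM contigs that fell belonged to 6 genes: Rbm14, Rbm27, Rbm33, Rbm42, Rbm44 and Rbm48, with log2 changes from -0.80 to -1.67. All but Rbm44 had passed the filter in RS alone, the stage in which they were higher. Rbm14, a paraspeckle protein, stood at 29.1, 32.2 and 23.1 CPM in RS wt/wt and at 14.8, 7.61 and 7.06 CPM in ES wt/wt (q 0.00558), and the call was lost without ES wt/wt replicate 2 (-1.16, q 0.0644). Gm21992 overlaps Rbm14 on the same strand, so reads could be split between them. Rbm44, a protein of the bridges between germ cells, was at 82.0 ± 6.93 and 47.8 ± 12.1 CPM (SD, n = 3, q 0.0250), and lost its call without RS wt/wt replicate 2 (-0.74) or ES wt/wt replicates 1 (-0.54) and 2 (-0.74).

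Rbm4b encodes a regulator of alternative splicing close to RBM4. Summed over its 5 contigs it stood at 166, 154 and 194 CPM in RS wt/wt and at 913, 791 and 742 CPM in ES wt/wt. In dcat/dcat the sums were 167, 134 and 204 CPM in RS and 777, 714 and 800 CPM in ES. With counts summed by gene, the log2 change was 2.38 in wt/wt (SE 0.179, q 1.8e-09) and 2.32 in dcat/dcat (SE 0.180, q 4.3e-09). The coding contig ENSMUST00000036744 had a log2 change of 2.29 in wt/wt (q 1.3e-04). The NMD contigs rose by 2.36 (ENSMUST00000236797, q 0.00106), 2.17 (ENSMUST00000236160, q 0.0136) and 2.22 (ENSMUST00000235278, q 5.1e-06). The short coding contig ENSMUST00000182821 rose by 1.45 (q 0.0161).

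How the Rbm4b reads divided between coding and NMD contigs differed with the replicate number. The 3 NMD contigs held 25.5%, 51.9% and 45.7% of Rbm4b counts in RS wt/wt replicates 1, 2 and 3, while RS dcat/dcat had 23.7%, 47.1% and 52.2%. The ES shares were 28.2%, 56.3% and 41.9% for wt/wt, and for dcat/dcat they were 32.5%, 67.5% and 65.6%. In every group replicate 1 had the lowest share. Between libraries of the same number the ES share was the higher in 3 of 3 pairs in dcat/dcat and in 2 of 3 in wt/wt, which was not tested. The contigs that share the alternative exon were lowest in replicate 1, at 19.1, 53.6 and 63.9 CPM in RS wt/wt and 131, 335 and 201 CPM in ES wt/wt when summed, while ENSMUST00000235278 was even, at 23.3, 26.2 and 24.8 CPM and 127, 110 and 110 CPM. The summed coding contigs were highest in replicate 1 of every group, at 124, 73.9 and 105 CPM in RS wt/wt and 524, 232 and 275 CPM in ES dcat/dcat, for example. Replicate 1 also had the lowest share of all counts of a library on NMD contigs of any gene, at 1.46% to 1.50% over the 4 groups against 1.78% to 2.27% in replicates 2 and 3. The source of this difference between replicate numbers was not tested. The alternative exon lies 1264 spliced bases from the 3′ end, and its acceptors are 4 bases apart. ENSMUST00000235278 is annotated to end at base 4765467 and ENSMUST00000036744 at 4765940. The division of reads among these contigs is therefore uncertain, and the gene sum does not depend on it. Whether reads of other genes entered that sum was not tested. Rbm4b is overlapped on the opposite strand by Gm21992 and Gm37206, and direct RNA reads keep their strand.

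**Figure D4:**
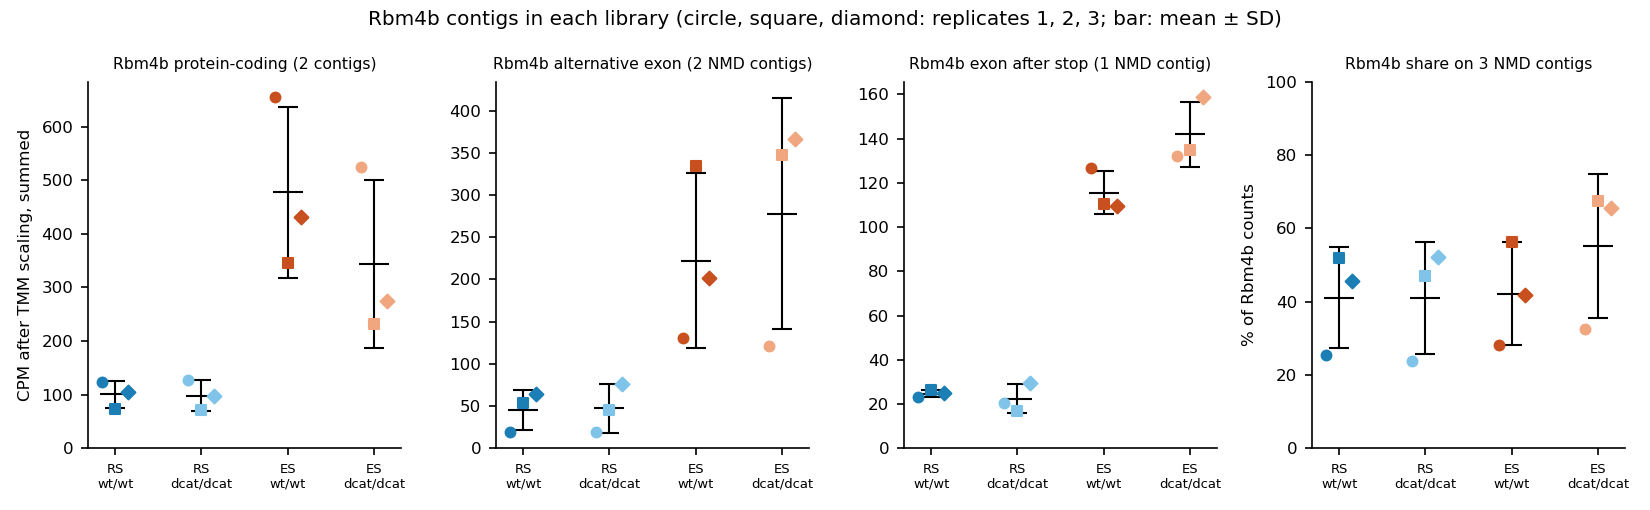
Rbm4b in each of the 12 libraries. The first 3 panels give CPM after TMM scaling for the 2 protein-coding contigs summed, the 2 NMD contigs with the alternative exon summed, and the NMD contig with an exon after the stop codon, and the last panel gives the share of Rbm4b counts on all 3 NMD contigs. Bars are mean ± SD of 3 libraries, and circles, which mark replicate 1, are lowest in every group of the last panel.

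Over the whole set, 12 contigs were annotated as NMD, 7 as retained introns and 139 as protein-coding. In wt/wt, 3 of 12 NMD members rose and 1 fell, where 27.5% of all tested NMD contigs rose and 5.89% fell. Of the 7 retained introns, 1 rose and 0 fell, against 25.9% and 9.29% of all tested retained introns. NMD and retained-intron contigs together held 4.99%, 7.12% and 6.55% of member counts in RS wt/wt and 8.33%, 12.9% and 11.2% in ES wt/wt. Those ranges did not overlap, and the same held in dcat/dcat, at 4.73% to 7.18% in RS and 9.11% to 15.1% in ES. Without Rbm4b and Rbm28 the ranges overlapped, at 4.32% to 5.90% in RS wt/wt and 4.23% to 4.98% in ES wt/wt. In dcat/dcat they overlapped too, at 4.08% to 5.02% in RS and 4.54% to 5.09% in ES.

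The same comparison in dcat/dcat males gave 10 members higher and 17 lower in ES, where 24% and 16.9% of all contigs were called, and 41% in either direction. RS and ES libraries of dcat/dcat with the same replicate number deviated together, and with that number as a block 11 were higher and 36 lower. Without ES dcat/dcat replicate 3, 9 were lower. The median log2 change was -0.41, against -0.18 for all contigs tested. These are other libraries than those of the wt/wt comparison, and 23 members were called in both, 9 higher and 14 lower, all in the same direction. They were 67.6% of the wt/wt calls and 85.2% of the dcat/dcat calls. Snrpc had a log2 change of -1.46 (q 2.4e-04), Lsm2 -1.02 (q 6.0e-04), Sf3a3 -1.17 (q 0.00184) and Rbm44 -1.11 (q 0.00383). Rbm31y rose by 1.89 (q 4.5e-04).

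Of the 38 members called in either genotype, 37 had the same direction in both, and over the 150 tested members Pearson's r of the log2 changes was 0.759 across contigs, which are not independent replicates. The contigs called in dcat/dcat and not in wt/wt included those of Srsf9 and Snrnp25 and 1 of Rbm27. Srsf9, an SR protein, stood at 5.34, 5.25 and 3.30 CPM in RS dcat/dcat and at 13.9, 9.99 and 21.9 CPM in ES dcat/dcat (log2 change 1.77, q 0.00544), and its call was lost without ES dcat/dcat replicate 3 (1.41, q 0.0616). In wt/wt it had 1.06 with q 0.0605, without overlap between stages. A call in 1 genotype and not in the other is no difference between them, and 0 members had an interaction of stage and genotype.

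**Figure D5:**
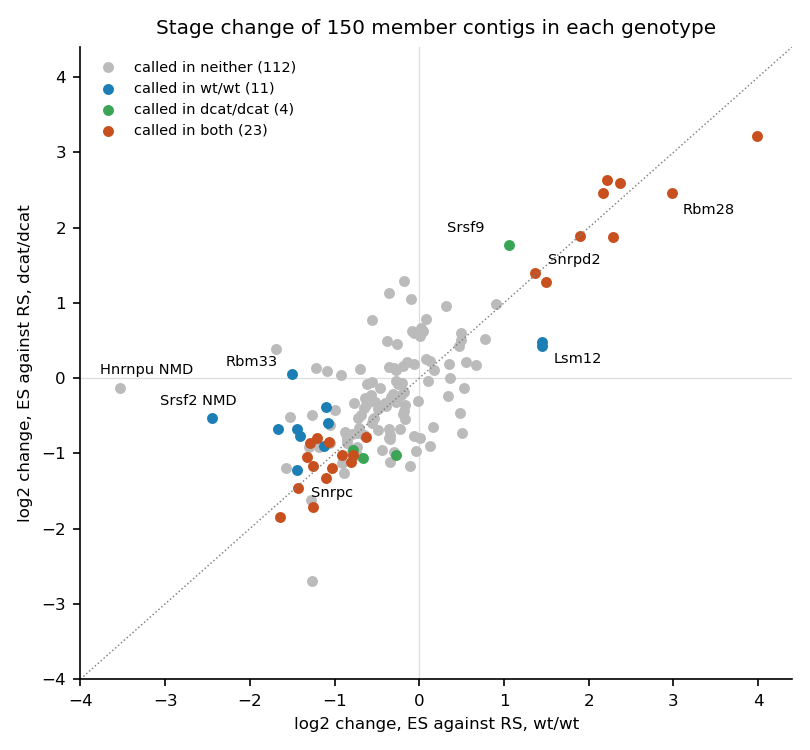
Log2 change from RS to ES of the 150 tested member contigs in wt/wt (horizontal) and dcat/dcat (vertical), with the dotted line marking equal change. Colours give where q was at or under 0.05. The 23 contigs called in both lie in the upper right and lower left, and Lsm12, Rbm33 and NMD contigs of Srsf2 and Hnrnpu lie off the line.

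The genotype comparisons asked whether loss of TENT5C polymerase activity altered the abundance of these transcripts within a stage. No member differed between dcat/dcat and wt/wt in RS or in ES by edgeR (0 of 150 in each), where 0% of all 11831 contigs were called, and DESeq2 also gave 0 in each. At an unadjusted p under 0.05 there were 0 members in RS, where 0.828% of all contigs passed, and 4 in ES, where 3.01% passed. The members' median log2 difference, dcat/dcat minus wt/wt, was -0.05 in RS and 0.04 in ES, and the median SE of a member was 0.372 and 0.493. Genotypes did not overlap in RS for 2 members that were higher in dcat/dcat and 5 that were lower, where 2.55% and 2.76% of all contigs were so separated. In ES these were 11 and 6 members, where 4.01% and 3.65% were. With such errors a 2-fold difference in a single member in ES would often have gone undetected.
In RS the smallest p values belonged to Lsm14a, a P-body protein (log2 difference -0.83, SE 0.390, p 0.0509), Snrnp25 (0.55, SE 0.266, p 0.0578) and an NMD contig of Hnrnpa2b1 (-0.72, SE 0.381, p 0.0784), each with q 1.

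In ES the smallest p belonged to Lsm12, at 71.9, 62.4 and 37.1 CPM in dcat/dcat against 99.3, 93.2 and 91.8 CPM in wt/wt. The genotypes did not overlap, and the log2 difference was -0.75 (SE 0.253, unadjusted p 0.00971, q 1). In RS Lsm12 was at 43.8, 40.6 and 37.1 CPM in dcat/dcat, above the wt/wt libraries. It also had the smallest p of the interaction among members (-0.97, SE 0.351, unadjusted p 0.0149, q 1). Its stage change in dcat/dcat was 0.48 with q 0.145, and with counts summed by gene it was 0.61 with q 0.0217. Without ES dcat/dcat replicate 3 the ES difference was -0.50.
An Srsf10 contig stood at 11.6, 19.97 and 10.1 CPM in ES dcat/dcat and at 27.5, 24.7 and 35.3 CPM in ES wt/wt (log2 difference -1.07, SE 0.384, p 0.0143, q 1). SRSF10 is an SR protein that represses splicing when dephosphorylated. Hnrnpa0 was the other way, at 20.9, 29.96 and 35.5 CPM in ES dcat/dcat and 16.9, 17.1 and 14.1 CPM in ES wt/wt (0.83, SE 0.364, p 0.0378, q 1). The fourth contig with p under 0.05 in ES, named after its values were seen, was the short coding contig of Rbm4b, ENSMUST00000182821 (-1.08, p 0.0420).
For the interaction, 2 members had p under 0.05, where 1.44% of all contigs did. Beside Lsm12 this was Hnrnpd (1.33, SE 0.584, p 0.0380), followed by Rbm33 (1.54, SE 0.732, p 0.0526). Rbm33 stood at 2.11, 7.61 and 3.53 CPM in ES wt/wt and at 11.6, 7.49 and 13.5 CPM in ES dcat/dcat, which overlap.

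Other genes of the pathway lie outside the rule. Of 41 contigs of spliceosome assembly and catalysis proteins, 12 fell and 0 rose in wt/wt, with a median log2 change of -0.67. Among all contigs, 16.5% were called lower and 23.8% higher, with a median of -0.24, and each count below is to be read beside these. Cwc15, of the Prp19-related complex, went from 134 ± 3.58 to 55.5 ± 11.4 CPM (SD, n = 3, log2 change -1.29, q 5.9e-04) and Crnkl1 from 52.9 ± 8.07 to 19.7 ± 1.25 CPM (-1.42, q 0.00108). Of 36 contigs of splicing regulators, 11 fell and 0 rose, among them Sap18 (-1.04, q 3.1e-04) and Ewsr1 (-1.81, q 0.00316). Crnkl1 and Ewsr1 passed the filter in RS alone, the stage in which they were higher. The exon junction complex had 2 of 4 contigs lower, led by its helicase Eif4a3 (-0.82, q 0.0131) and followed by Magohb (-3.12, q 0.0240). Magohb passed the filter in RS alone, with 12, 4 and 15 counts in RS wt/wt and 0, 0 and 1 in ES wt/wt. In dcat/dcat its log2 change was -1.09 (q 0.292).
Of 10 contigs of kinases that phosphorylate SR proteins, 4 were higher and 0 lower in wt/wt. Srpk2 stood at 50.7, 46.5 and 59.1 CPM in RS wt/wt and at 368, 253 and 233 CPM in ES wt/wt, and its log2 change was 2.44 in wt/wt (SE 0.223, q 2.15e-06) and 1.78 in dcat/dcat (q 2.4e-05). An NMD contig of Srpk2 rose by 2.12 (q 7.6e-05). Among 13 contigs of snRNP assembly genes, 3 rose and 1 fell. A contig of Gemin4, a gene of the SMN complex, was higher by 2.72 (q 1.7e-05). It is 234 bases long and annotated as a processed transcript, not as protein-coding. Strap was lower by a log2 change of -1.13 (q 2.6e-04). These lists were drawn up with earlier results of these data known, and no list was tested as a set.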

How the data were processed

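Native poly(A) RNA from 12 libraries of sorted mouse spermatids, 3 in each of 4 groups, was sequenced on nanopores. The authors deposited raw read counts per contig. They aligned reads to GENCODE vM17 transcripts with minimap2 (2.20-r1061 in the submitters' notes), kept reads with a callable tail, and kept contigs reaching a minimum of reads in replicates of a condition. Their tables of DESeq2 log2 fold changes and adjusted p-values were used for gene symbols alone.

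Counts were tested with edgeR 4.0.16 (R 4.3.3, limma 3.58.1): TMM scaling, glmQLFit over all 12 libraries with 1 coefficient per group, glmQLFTest, and Benjamini-Hochberg adjustment over the 11831 contigs that reached 10 reads in 2 or more libraries of any group. The stages were contrasted within a genotype, the genotypes within a stage, and the interaction was tested. The fit was tested on simulated data. Total counts ran from 337287 to 1359427, and a floor was set at 3 counts. Alternatives were RLE scaling, total counts alone, no filter, at least 10 counts in every library, counts summed by gene, DESeq2 1.42.0, a replicate block, and leaving out each library.

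Groups came from the sample labels. The members, lists and roles were chosen with earlier results of these data known. Named genes were, per role, the most counted contig of up to 3 genes, then up to 8 rising and 8 falling contigs with the smallest q and no overlap in each stage comparison, and the 3 smallest p of each genotype comparison and the interaction. For pathway lists, the 2 smallest q were named. RS and ES came from the same mice, though the sources used here do not tie them to replicate numbers. Deviations from group means correlated between same-numbered libraries at 0.504 to 0.687 for RS and ES dcat/dcat. For the genotypes in RS they correlated at 0.67 to 0.872. For RS and ES wt/wt the values were 0.568, 0.648 and -0.315 in replicates 1, 2 and 3. For the genotypes in ES they were 0.75, 0.592 and 0.0568. The main fit had no replicate block, so its p-values take no account of such pairing, and the block was run as an alternative. Exon edges came from GENCODE vM21, which held all 159 members. Protein sequences were not used here. The values of 1 member gene are not reported here.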

Additional observations from a re-analysis of the deposited data

Results flagged for a closer look

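The Lsm12 contig ENSMUST00000021297 stood out because its genotype difference ran in opposite directions in the 2 stages, with no overlap in either. Every dcat/dcat library lay above every wt/wt library in RS and below every one in ES (log2 difference -0.75). The RS difference was small against its error (0.22, SE 0.243, unadjusted p 0.387), and the nearest RS libraries were at 36.6 and 37.1 CPM. The interaction of stage and genotype was -0.97 on the log2 scale (SE 0.351, edgeR unadjusted p 0.0149, q 1), so it did not pass adjustment over all contigs. Without ES dcat/dcat replicate 3 it was -0.72. The other tested Lsm12 contig, ENSMUST00000107156, had fewer counts and went the other way in each stage. Its log2 difference was -0.50 in RS and 0.22 in ES, and the genotypes overlapped in both. With counts summed by gene, the difference was 0.10 in RS and -0.67 in ES, and the interaction was -0.76.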

How the results depend on the processing

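In wt/wt, the 11 members higher in ES became 5 with at least 10 counts in every library, and 9 to 12 without single libraries. The 23 lower members became 82 with total counts alone, 14 with at least 10 counts in every library, 40 with the replicate block and 10 to 25 without single libraries. In dcat/dcat, the 10 higher members became 4 with at least 10 counts in every library, and the 17 lower became 74 with total counts alone, 36 with the replicate block and 9 to 22 without single libraries. The filter on every library left fewer members to test, and the cause of the other shifts was not tested. Genotype and interaction counts were 0 under every alternative run, the replicate block included. Over the named contigs, 992 values kept direction and side of the threshold, 38 lost and 23 gained a call (Prpf18 in 6 settings, Snrpf and Srsf3 in 4 each and Hnrnpu in 3), and 7 turned sign, all uncalled: with total counts alone Lsm4 (-0.62), Srsf2 (-0.38), U2af1 (-0.39) and Snrnp35 (-0.60), without ES wt/wt replicate 1 Lsm4 (-0.16) and U2af1l4 (0.15), and without RS wt/wt replicate 1 Hnrnpab (0.00095). Without single libraries these ranged from -0.16 to 0.43 for Lsm4, -0.59 to 0.15 for U2af1l4 and -0.33 to 0.00095 for Hnrnpab. Pools are few and ES libraries shallow, so low contigs carry wide errors, and p-values measure the spread between pools.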

Other observations

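Of 14 member genes with both coding and unproductive (NMD or retained-intron) contigs, 2 had their lowest unproductive share in replicate 1 of every group, Rbm4b and Sf3b2, and 1 had its highest there, Srsf2. The retained-intron contig of Sf3b2 held 18.8% and 18.3% of that gene's counts in replicate 1 of RS wt/wt and RS dcat/dcat, against 35.7% to 48.9% in replicates 2 and 3. The NMD contig of Srsf2 held 22.4% and 19.2% in replicate 1 of these groups, against 5.26% to 18.5%. Over all genes, retained introns held 1.17% to 1.24% of counts in replicate 1 of the 4 groups and 1.50% to 1.78% in the others. These genes were chosen after their values were seen.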
